A study of Ettlia oleoabundans with 10 samples.

Results

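The step from 300 to 600 mM NaCl was examined in the oil-storing green alga Ettlia oleoabundans, a single-celled organism, by comparing the transcript levels of 1 culture at each concentration. Expression levels are given for 10122 scaffold families, which are groups of assembled transcript sequences, and 9349 of them had a mean level of at least 1 over the 2 libraries and were compared. A family was called higher or lower at 600 mM when its centred log2(level + 1) differed by at least 2-fold, the centre of a library being its median over the families compared. By this rule 1903 families (20.4%) were higher at 600 mM, 720 families (7.7%) were lower, and 6726 were not called. Of the 1903, 191 reached 5 or more at 600 mM while staying under 1 in each of the other 9 libraries. They are described apart because their source is uncertain, and 1712 families remain without them.

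All cultures were strain UTEX # 1185, kept for 6 days at 25 °C in constant light as their only energy source. The medium was a modified Bold Basal Medium, to which vitamins B1 and B12 had been added. The series holds 10 libraries, each the only one of its condition: 0, 0.38, 0.75, 1.5 and 3 mM nitrate, 75, 150, 300 and 600 mM NaCl, and a control with 9 mM nitrate and 42 mM NaCl. The labels of the 300 and 600 mM cultures do not state their nitrate. With 1 library a side there is no replicate error, so every difference below describes 2 libraries, has no test, and would hold for the conditions only if other cultures behaved like these. In bulk RNA, fewer cells that express a gene and less of its RNA per cell cannot be told apart.

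Salt acts on a freshwater alga in 2 ways, by drawing water out of the cell and by loading it with sodium and chloride ions. Green algae are known to respond with ion pumps and antiporters, with compatible solutes such as glycerol and proline, and with a slowing of photosynthesis and division. The table gives families numbers only and does not pair them with gene names, so no family below is assigned to any of these functions.

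The levels are values scaled for length and depth, as judged from the values themselves, and the read depth is unknown. Library totals were 695913 at 300 mM and 571998 at 600 mM, within 362924 to 695913 over all 10 libraries. Before centring, the median log2(level + 1) was 4.36 at 300 mM and 4.22 at 600 mM, so centring moved every difference by 0.14. At 600 mM 816 families were under 1, whereas each of the other libraries had 1374 to 1821 such families. The titles carry codes that the sources used here do not explain: the 300 mM library is c4 and the 600 mM library c5, while 2 libraries, of 0.38 mM nitrate and of 150 mM NaCl, have an RAA code.

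The quartiles of the difference over all 9349 families were -0.44 and 0.76 on the log2 scale, with a median of 0.05, so the distribution had its longer side towards 600 mM. At 4-fold, 781 families were higher and 94 lower, and at 8-fold 126 were higher and 37 lower. The smallest difference called higher was 1.00006 and the largest below it 0.999714. Close to the boundary, 164 families lay between 1.0 and 1.1 and 169 between 0.9 and 1.0. The lowest mean level compared was 1 and the highest left out was 0.995.

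**Figure D1:**
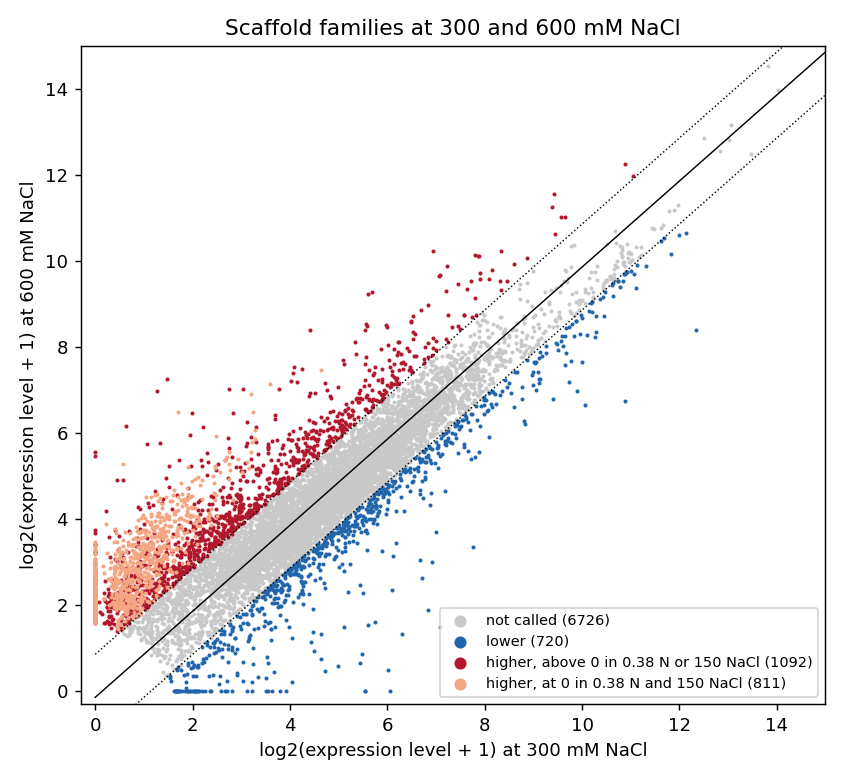
Each point is 1 of 9349 scaffold families, with log2(expression level + 1) at 300 mM NaCl on the x axis and at 600 mM on the y axis; the solid line marks no difference after centring and the dotted lines a 2-fold difference. Most of the 811 families at 0 in both RAA-coded libraries lie at the lower left, above the upper line, and the 720 lower families reach far higher levels.

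As a measure of how far similar cultures lie apart, the same rule was applied to 3 against 1.5 mM nitrate, where 36 of 8541 families (0.421%) were called and the SD of the centred log2 differences was 0.28. For 600 against 300 mM NaCl that SD was 1.09, with 28.1% of families called. These values include 927 families at 0 in both RAA-coded libraries, described below. Without them, 1164 of 8422 families were higher and 595 lower. The other pairs are given with such families kept. The lower salt steps were smaller: 10.5% of families were called for 75 mM NaCl against the control (5.39% higher and 5.13% lower) and 12.2% for 300 against 75 mM (4.96% higher and 7.21% lower). For 600 against 75 mM NaCl, 30.7% were called, and for 600 mM against the control 35.9%. The comparisons that involve 300 or 600 mM share those libraries and are set side by side only.

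Families are named first for the size of their difference, 2 in each direction, among those with a level of at least 20 in the higher library. Family 1923_c0 had a level of 1.79 at 300 mM and 151.96 at 600 mM, a centred log2 difference of 5.92. It had 109.26 in the control, and 87.91 and 34.23 with 75 and 150 mM NaCl. Along the nitrate series (0, 0.38, 0.75, 1.5 and 3 mM) it had 0.17, 0.86, 163.91, 162.08 and 149.27. The level at 600 mM thus lay among those of the nitrate-supplied low-salt cultures, and the low level at 300 mM lay beside those of the 2 cultures with least nitrate. Family 2800_c1 had 1.4 at 300 mM and 126.02 at 600 mM, a log2 difference of 5.87. Its control level was 9.46, that with 75 mM NaCl 3.37 and that with 150 mM 7.09. The nitrate series, in the same order, gave 0, 0.15, 7.22, 3.93 and 5.55. Here 600 mM stood above all the other libraries.

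Of the 2 families with the largest difference downwards, 3992_c0 had 65.06 at 300 mM and was listed at 0 at 600 mM, so no fold is given. It was also listed at 0 in both RAA-coded libraries, and had 0.79 without nitrate. Its other levels were 38.92, 29.62 and 49.92 with 0.75, 1.5 and 3 mM nitrate, 50.72 in the control and 105.59 with 75 mM NaCl. Its levels thus ran from 0 to 0.79 in 4 libraries and from 29.62 to 105.59 in the other 6. Family 4609_c0 had 134.83 at 300 mM and 1.81 at 600 mM, a log2 difference of -5.46. It had 2.35 in the control, 33.45 with 75 mM NaCl and 208.51 with 150 mM, and along the nitrate series 4.85, 39.52, 1.68, 2.65 and 4.35. Its level was therefore high in the 3 cultures of 75 to 300 mM NaCl and in the 0.38 mM nitrate culture, and the 600 mM culture was again as low as the control.

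Other families are named for the amount of the library they took up. Family 2_c0 gained most, from 2.08% of the library total at 300 mM to 4.13% at 600 mM (0.0986% in the control). Its levels along the NaCl series were 470.73 (control), 3769.75, 14668.2, 14449.2 and 23630.3, and along the nitrate series 1679.03, 297.01, 461.9, 321.37 and 376.84. The 150 and 300 mM cultures were level, and the log2 difference of 0.85 from 300 to 600 mM is under the 2-fold mark. Family 16_c0 followed, from 0.269% to 0.851% of the total, with levels of 1875.3 and 4866 and a log2 difference of 1.51. Family 16_c0 had 309.37 in the control, 897.24 with 75 mM NaCl and 1347.42 with 150 mM, and along the nitrate series 4110.47, 1458.65, 1701.89, 365.09 and 265.87. It was thus highest at 600 mM NaCl, with the culture without nitrate next.

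The largest loss of share was in 65_c0, from 0.745% at 300 mM to 0.0586% at 600 mM, with levels of 5181.9 and 335.01 and a log2 difference of -3.81. Its levels were 4334.28 in the control, 3256.62 with 75 mM NaCl and 6.99 with 150 mM, and along the nitrate series 110.97, 21.46, 5403.59, 3172.59 and 4224.24. Family 52_c0 came second, from 1.63% to 1.01%, with levels of 11361.1 and 5765.95 and a log2 difference of -0.84, which is not called. Both were lowest in the RAA-coded libraries and low without nitrate (52_c0 had 28.16 and 43.32 in the RAA-coded libraries of nitrate and NaCl, and 579.83 without nitrate). With 0.75, 1.5 and 3 mM nitrate 52_c0 had 10952, 7172.65 and 10319.6, and with 75 mM NaCl 9716.58. At 600 mM 52_c0 kept far closer to its control level of 10654 than 65_c0 did.

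**Figure D2:**
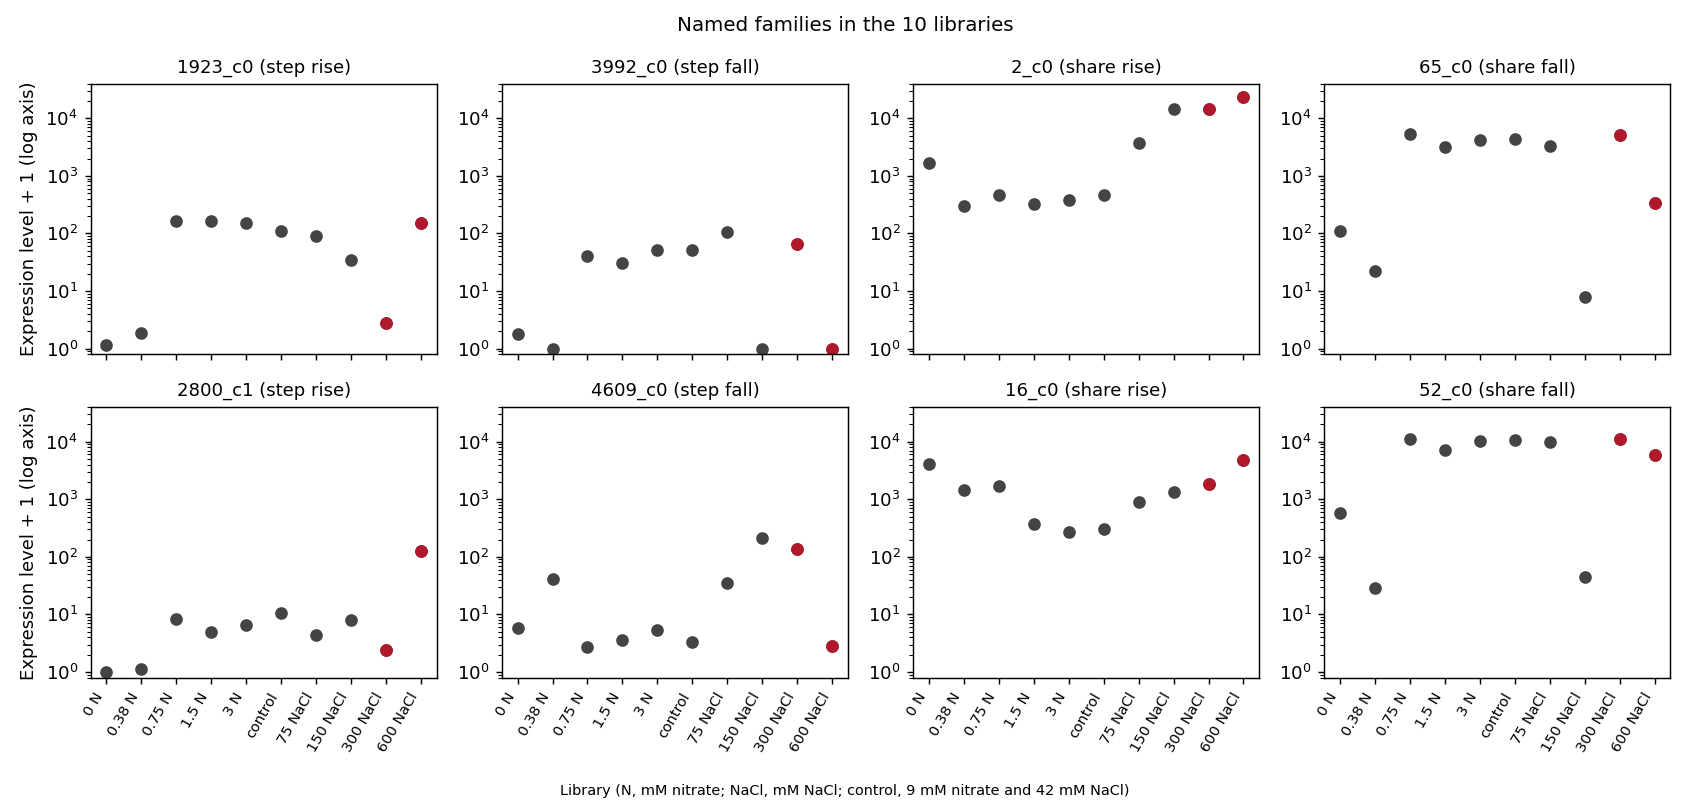
Expression level + 1 on a log axis in each of the 10 libraries for the 4 families with the largest differences and the 4 with the largest change in share; red points are 300 and 600 mM NaCl, 1 culture each. Families 1923_c0 and 2800_c1 are low at 300 mM (1.79 and 1.4), and 3992_c0 and 65_c0 are low at 600 mM as well as in the RAA-coded libraries (0.38 N and 150 NaCl).

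Together the 1903 higher families held 4.34% of the library total at 300 mM and 16.6% at 600 mM, against 4.5% in the control and 8.54% at 150 mM. The 720 lower families held 19.7% at 300 mM and 8.3% at 600 mM, against 21.7% in the control, 15.6% without nitrate and 12.8% at 150 mM. These families were chosen by their levels at 300 and 600 mM, so both shares at those concentrations are a description. The set of lower families depends on the scaling: with equal library totals 515 families were lower and held 4.58% at 600 mM, and without centring 995 were lower and held 12.1%. Families that were not called held 75.9% at 300 mM and 75% at 600 mM.

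The calls were unevenly spread over expression levels. Among the 1733 families with a mean level of 1 to 5 over the 2 libraries, 51.5% were higher and 7.04% lower. From 5 to 20 these shares were 19.1% and 7.29% of 3060 families, and from 20 to 100 they were 8.79% and 6.59% of 3492. At 100 and more, 118 of 1064 families (11.1%) were higher and 145 (13.6%) lower. The excess of higher over lower families was thus largest at the low levels. It was small from 20 to 100 (307 higher and 230 lower), and in the highest band the order was the other way round. The filter adds to this: a family under 1 at 300 mM passed it only by being high at 600 mM, and 723 of 760 such families were called higher, as 102 of 142 under 1 at 600 mM were called lower. Among the 8447 families at 1 or more in both libraries, 1180 were higher and 618 lower. The counts also depend on the treatment of low levels: a pseudocount of 5 gave 1046 higher and 412 lower families, and a minimum mean of 5 gave 1070 and 531.

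**Figure D3:**
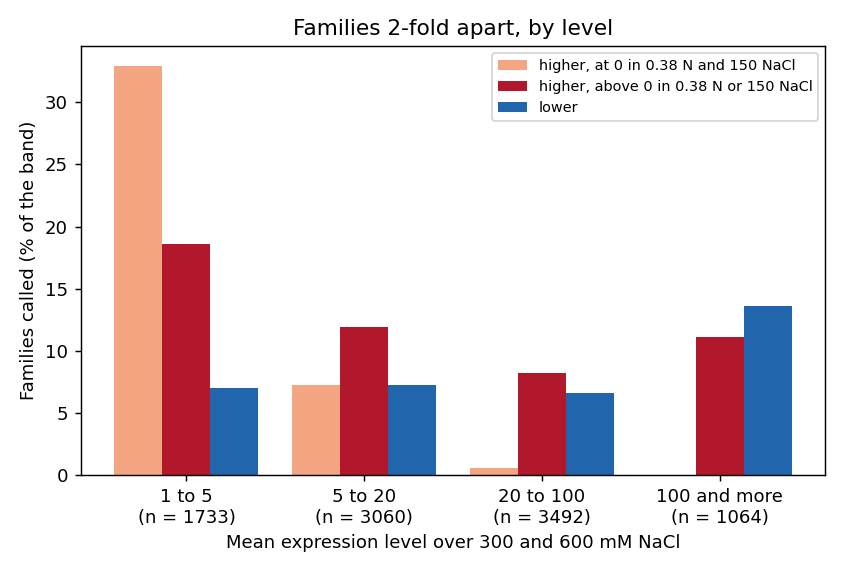
Percentage of families called, by band of the mean expression level over 300 and 600 mM NaCl, for higher families at 0 at 0.38 mM nitrate and 150 mM NaCl, other higher families, and lower families. The first kind takes 570 of 1733 families in the lowest band and 0 of 1064 in the highest.

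The 118 higher families with a mean of 100 or more had median levels of 42.6, 76.6, 129.9, 89.5 and 276 along the NaCl series (control, 75, 150, 300 and 600 mM). Their medians were 31.1 to 58.9 in the nitrate series below the control, highest without nitrate. The 145 lower ones had medians of 329, 396, 219, 510 and 144 along the same series. They were also low in the cultures short of nitrate, with medians of 118, 69.6 and 137 for 0, 0.38 and 0.75 mM, against 324 and 339 for 1.5 and 3 mM. These medians are of levels as deposited, and the 0.38 mM library (RAA code) had the smallest total, 362924. The 150 mM library, with a median of 219, has the other RAA code. After centring, 72 (49.7%), 96 (66.2%) and 62 (42.8%) of the 145 were at least 2-fold below the control at 0, 0.38 and 0.75 mM. In the same libraries 17, 2 and 3 were at least 2-fold above it. At 150 mM NaCl 56 (38.6%) were below and 13 above. The part of the codes was not tested.

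A large part of the higher families had another profile, noticed after the values were seen. Of the 1903, 811 were listed at 0 in both RAA-coded libraries, 0.38 mM nitrate and 150 mM NaCl, and these include all 191 families found almost only at 600 mM. Before any filter, 1223 families were at 0 in both of these libraries, and 927 of them passed the filter on the mean over 300 and 600 mM, of which 54 were lower. Most of the 811 were under 1 at 300 mM and passed only through their level at 600 mM, so the filter largely sets their direction and nothing is read from that count. With the 927 left out before centring, 1164 families were higher and 595 lower. The 811 had a median level of 5.71 at 600 mM (quartiles 3.58 and 9.87), 0.64 at 300 mM and 0.21 at 75 mM, and a median of 0 in the other 7 libraries. They were at 0 in the control in 792 cases. At 600 mM 201 of them reached 10, and the highest stood at 176.18. They held 1.27% of the 600 mM total and 0.122% of that at 300 mM. Their identifier numbers were high, with a median of 44812 against 8045 for the other 1092 higher families and 4422 for the lower ones. The sources used here do not say what the numbers stand for.

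**Figure D4:**
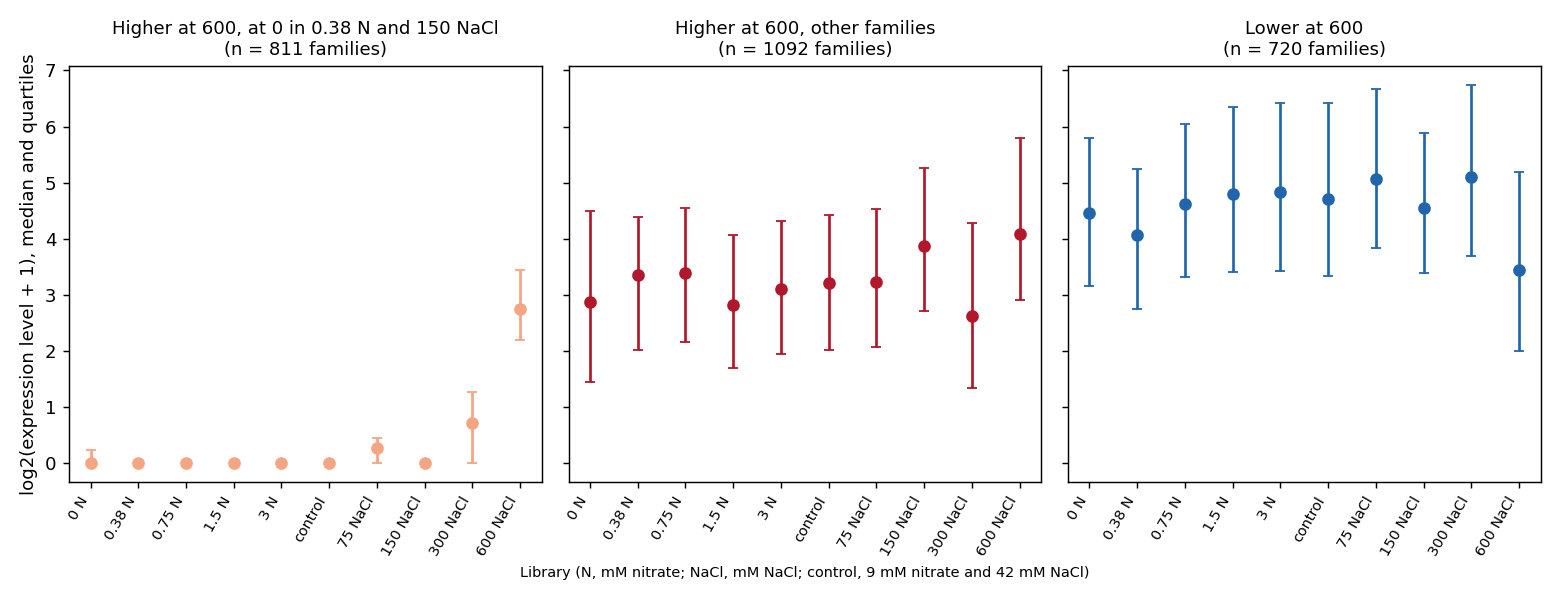
Median and quartiles over families of log2(expression level + 1) in each of the 10 libraries, for 811 higher families at 0 at 0.38 mM nitrate and 150 mM NaCl, the 1092 other higher families and the 720 lower families; bars span families, not replicates. The first set is near 0 everywhere but at 300 and 600 mM NaCl, with medians of 0.64 and 5.71, whereas the medians of the other sets are 5.12 or more in each library.

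The 191 families with at least 5 at 600 mM and under 1 elsewhere had levels at 600 mM of 5 to 38.18, with a median of 6.65 and quartiles of 5.78 and 8.34. They made up 0.25% of the library total. The highest was 16826_c0, at 38.18, with 0.48 and 0.28 in the 300 and 75 mM NaCl cultures, 0.79 without nitrate and 0 in the others. Next was 23925_c0, at 16.04, with 0.98 and 0.08 in the same NaCl cultures and 0 in the others. Both thus had traces in other libraries with c codes and in none of the RAA-coded ones. Over the whole set, the number of families above 0 was 129 with 300 mM NaCl and 124 with 75 mM. It was 57, 21, 1 and 4 with 0, 0.75, 1.5 and 3 mM nitrate, 2 in the control and 0 in either RAA-coded library. Where above 0, the level at 300 mM was a median of 7.84% of that at 600 mM (quartiles 5.8% and 10.5%), that at 75 mM was 5% (2.1% and 7.17%) and that at 0 mM nitrate 2.84%. These 3 libraries are coded c4, c3 and c6, the 600 mM library c5 and that of 0.75 mM nitrate c7. The part of the codes in the traces was not tested, nor was it tested whether the sequences belong to the alga.

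The limit of 5 divided a continuous group. In all, 641 families were under 1 in every library other than 600 mM, of which 392 had 1 to 5 there, 58 had under 1 and 191 had 5 or more. The lowest level inside the set was 5 and the highest outside it 4.99. The highest level of a member in another library was 0.99, and the lowest value that kept a family out on this side was 1. No other library stood out in this way: each had 58 to 118 families under 1 in all the others, of which 3 at 0.38 mM nitrate, 1 at 0.75 mM and 0 in the other 7 reached 5.

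**Figure D5:**
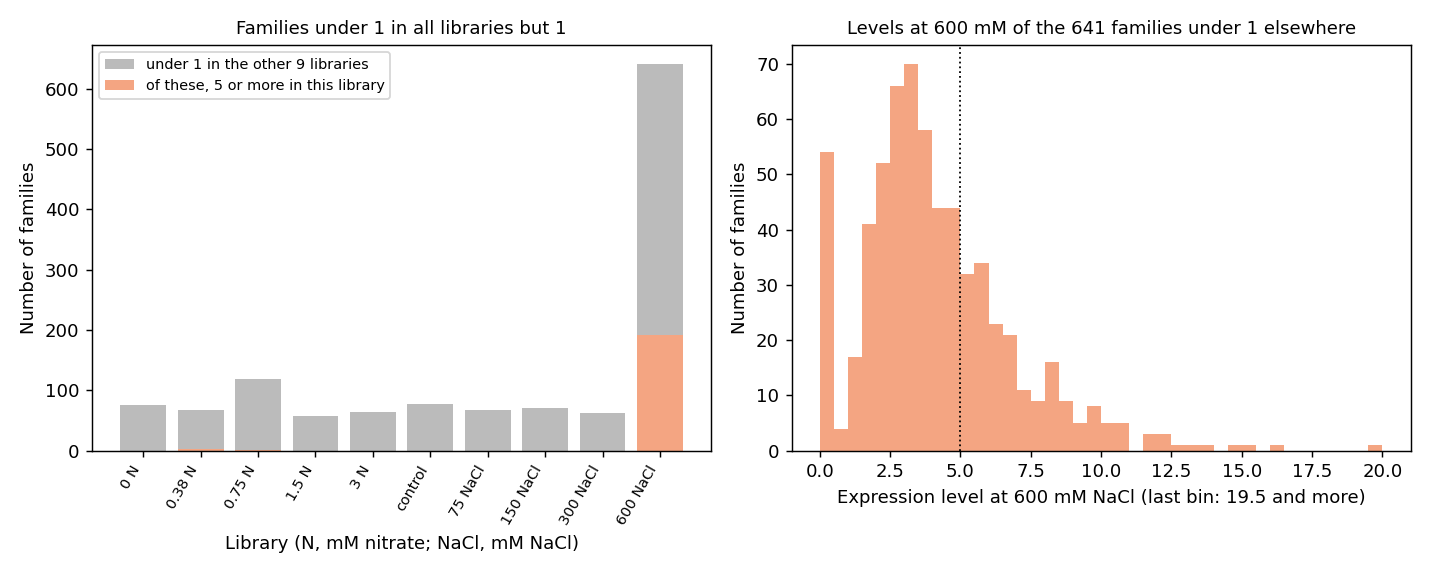
On the left, for each of the 10 libraries, the number of families under 1 in the other 9 libraries (grey) and of those at 5 or more in the library itself (orange); on the right, the levels at 600 mM NaCl of the 641 such families, with the limit of 5 dotted. The bar of 600 mM reaches 641 and 191, and the other grey bars lie between 58 and 118.

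The other 1092 higher families were those above 0 in at least 1 RAA-coded library. Up to 40 of them were listed at 0 in any 1 library, the most in that without nitrate, with 34 at 300 mM and 17 in the control. They had median levels of 8.29, 8.35, 13.6, 5.12 and 15.9 along the NaCl series from the control to 600 mM. Their difference between 600 and 300 mM therefore has 2 sides, a level at 600 mM that is high for them and a level at 300 mM that is low. In 557 of the 1092 the 600 mM level was above all 8 libraries other than 300 mM, where 2322 of the 9349 families compared were. In 298 the 300 mM level was below all 8, as in 1143 of 9349. Both held in 62. The 236 families with only the low 300 mM level had a median of 2.69 there and 9.43 at 600 mM, against 10.3 in the control and 12.7 at 150 mM. All 811 higher families at 0 in both RAA-coded libraries are among the 2322 and none is among the 1143, so neither count is a like background for the 1092. These positions use levels as deposited, without centring. They also use the compared libraries again and are a description.

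The lower families had the same 2 sides. In 335 of 720 the level at 600 mM was below all 8 other libraries, where 1806 of the 9349 families compared were. These 335 had a median at 600 mM of 6.55, against 21.1 at 300 mM and 21.7 in the control. In 211 the level at 300 mM was above all 8, as in 2197 of 9349, a share not far from that of the lower families. Their median was 60.5 at 300 mM, 23.4 in the control and 18.8 at 600 mM. Both held in 44. The 2197 include 586 families called higher, so that count is not a like background for the 720. Levels are again placed as deposited, and the 300 mM library had the largest total (695913). As above, the 720 families were chosen by the levels that are placed here.

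Levels in the 8 libraries that the comparison did not use show where else the called families differed, and were set against all 9349 families. Of the 9349, 888 were listed at 0 in the control and could not be called lower than it, against 11 of the 720 lower families. The shares over all families are therefore not a like background for the 720. The lower families were often low under nitrate shortage and at 150 mM NaCl too. Relative to the control, 235 of 720 (32.6%) were at least 2-fold lower at 0 mM nitrate, where 12.4% of all families were. At 0.38 mM it was 288 (40%) against 11.7%, and at 0.75 mM 137 (19%) against 5.39%. At 150 mM NaCl it was 221 (30.7%) against 7.96%. Of these, 0.38 and 150 mM have RAA codes, whereas 0 and 0.75 mM have c codes. Lower than the control in both RAA-coded libraries were 175 of the 720, against 443 of the 9349. The part of the codes in these shares was not tested. The 235 families had a median level of 69.5 in the control, 18.7 without nitrate, and 54.8 and 18.2 with 300 and 600 mM NaCl. Both gaps follow from how the 235 were chosen, so no likeness between cultures is read from them. At 75 mM NaCl 37 of the 720 (5.14%) were lower than in the control, against 2.99% of all families, and 83 (11.5%) were higher, against 4.65%.

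The 1092 higher families not at 0 in both RAA-coded libraries were lower at 0 mM nitrate than in the control in 295 cases (27%, against 12.4% of all families) and higher in 109 (9.98%, against 9.54%). This was not particular to nitrate shortage. At 1.5 mM nitrate 159 (14.6%) were lower, against 3.2% of all families, and at 3 mM 61 (5.59%), against 1.39%. At 0.38 mM 180 (16.5%) were higher and 172 (15.8%) lower, against 9.43% and 11.7%. All families here include those at 0 in both RAA-coded libraries. The 295 had a median level of 10.2 in the control, 1.81 without nitrate, and 2.74 and 11.9 with 300 and 600 mM NaCl, an order largely fixed by the choice of these families. At 150 mM NaCl 262 of the 1092 (24%) were higher than in the control, against 8.97% of all families, and 86 (7.88%) were lower, against 7.96%. The 262 had medians of 7.58, 15.3, 39.2, 15.6 and 52.3 along the NaCl series from the control to 600 mM, where the choice likewise fixes 150 above the control and 600 above 300 mM. Being above 0 in an RAA-coded library is part of how these 1092 were set apart, so their levels there are not independent of that choice.

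A further pair of neighbouring salt libraries, 150 against 75 mM, shares no library with 600 against 300 mM, and was looked at after the values were seen. Of the 720 families lower at 600 than at 300 mM, 224 (31.1%) were lower at 150 than at 75 mM and 12 (1.67%) were higher, where 5.6% and 5.58% of all 9349 families were. Of all 1903 higher families, 275 (14.5%) were higher at 150 than at 75 mM and 41 (2.15%) were lower. The other 811 higher families were at 0 at 150 mM by definition and could not be called higher there. The 275 therefore all fall among the 1092 families above 0 in an RAA-coded library, of which they are 25.2%. Of the 8422 families not at 0 in both RAA-coded libraries, 6.2% were higher at 150 than at 75 mM. The choice of the 1092 uses the 150 mM library, so their share is not independent of it. Across the 8422 families not at 0 in both RAA-coded libraries, the 2 differences had a Pearson r of 0.46, and across all 9349 it was 0.31; families of 1 library share its depth and preparation and are not replicates. Among families with a mean of 100 or more, 49 of the 118 higher ones (41.5%) were higher at 150 than at 75 mM and 3 were lower. Of the 145 lower ones, 53 (36.6%) were lower and 4 were higher. The shares over all 1064 families of that level were not computed, so no excess over them is read from these counts. The 150 mM library is also one of the RAA-coded pair, and a difference of 75 mM NaCl from the control, both with c codes, had an r of -0.15 with the 600 against 300 mM difference over the same 8422 families. For 0.38 (RAA code) against 0.75 mM nitrate r was 0.08, and for 0 against 0.75 mM nitrate -0.14. The pairs 150 against 75 mM NaCl and 75 mM against the control share the 75 mM library, with opposite sign. Both nitrate pairs share the library of 0.75 mM, so these r values are not independent of each other. The part of the codes in this was not tested.

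Some identifiers share the number before the _c suffix. In 231 groups at least 2 families were compared, 485 families in all, of which 61 (12.6%) were higher and 27 (5.57%) lower. Over all 9349 families these shares were 20.4% and 7.7%. In 153 groups no family was called, in 71 some were called in 1 direction, in 2 (278 and 8045) all were higher and in 1 (62) all were lower. In 4 groups (35, 148, 449 and 766) families were called in opposite directions. These groups are named after their values were seen. How many groups of each kind would arise without any link between their families was not computed, so nothing is read from the counts. Family 278_c1 was at 0 in both RAA-coded libraries. In group 148, 148_c0 had 323.67 at 300 mM and 1208.15 at 600 mM, while 148_c1 had 71.41 and 17.26. In the control they had 180.11 and 82.76, and 148_c0 was above 148_c1 in all 10 libraries. The gap was also wide at 150 mM NaCl (582.51 and 16.89), at 0.38 mM nitrate (195.21 and 13.72) and without nitrate (258 and 31.08). In group 62, 62_c1 had 2207.86 at 300 mM and 658.1 at 600 mM, and 62_c0 891.26 and 370.36. Without nitrate these 2 were at 51 and 45.84, against 2050.63 and 645.64 in the control. The sources used here do not say how families of 1 number relate to genes.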

How the data were processed

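Poly(A)-selected RNA was sequenced with an Illumina kit, per the labels' protocols. Tools listed in the submitters' processing notes, without their roles, are RSEM 1.2.0, Bowtie 0.12.8 and edgeR 3.0.8. The deposited values were taken as signal: expression levels scaled by the authors for length and depth, as judged from the values. The sources used here do not say whether they are FPKM or TPM. Read depth is unknown, and neither counting intervals nor detection limits are given. All 10 library columns were used.

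Differences were computed with pandas 2.3.3 and numpy 2.4.6 on log2(value + 1), each library centred on its median over families with a mean of at least 1; this scale understates differences of low families. The computation was checked on simulated data. No test was run, since each condition has 1 library. Families named are the 2 with the largest difference each way (at least 20 in the higher library), the 2 with the largest gain and loss of library share, and the 2 highest of the set almost only at 600 mM. The members and lists were chosen with earlier results of these data known. Alternatives were other scalings, pseudocounts, filters, thresholds and comparison libraries, with those noted as chosen after the values were seen.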

Additional observations from a re-analysis of the deposited data

How the results depend on the processing

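Of the alternatives tried, those that change only the scaling kept both counts within 1.5 times, at 1684 to 2050 higher and 515 to 995 lower families. A pseudocount of 5 gave 1046 higher and 412 lower, a minimum mean of 5 gave 1070 higher, and a 4-fold threshold gave 781 higher and 94 lower. A level of at least 20 in the higher library gave 552 higher and 425 lower, and leaving out the families at 0 in both RAA-coded libraries gave 1164 higher; both were chosen after the values were seen. With the control in place of 300 mM, 1323 families were lower. The other counts under these and the remaining settings stayed within 1.5 times. Of the families almost only at 600 mM, 23 reached 10 there and 86 stayed under 0.5 elsewhere; equal totals gave 225 and median-ratio size factors 234. The higher families held 14.4% of the 600 mM total with no centring, 16.2% with centring on the median difference, 17.1% with median-ratio size factors, 18.4% with equal totals and 15.2% with a trimmed mean; the lower ones held 12.1%, 9.11%, 6.35%, 4.58% and 9.67%. The median log2 ratio of 150 mM NaCl to the control over the higher families was -0.35, the value that centring gives a family at 0 in both libraries, and 0.11 with a minimum mean of 5. Over the lower families at 4-fold it was -1.23, and that of 0.38 mM nitrate -1.14, against -0.49 and -0.60 at 2-fold. Under the scalings and pseudocounts no named family changed direction; 12 of 70 values moved by more than the SD of 0.28 between the cultures of 3 and 1.5 mM nitrate, all of them with another pseudocount. Apart from the minimum and threshold settings, whose construction leaves fewer families, the cause was not tested. No paired analysis was possible because each condition has 1 library. Depth is unknown, so a value of 0 is only listed at 0.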
